A study of Sus scrofa with 5 samples.

Results

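Mast cells of the piglet cecum are the subject, and they were chosen by a rule on 4 genes. A cell barcode was taken as a mast cell when it held at least 200 genes, at least 1 unique molecular identifier (UMI) of HDC and at least 1 of MS4A2, and no UMI of CD1.1 or EPCAM. HDC makes histamine, MS4A2 is the beta chain of the high-affinity receptor for IgE, CD1.1 is an antigen-presenting gene of dendritic cells and EPCAM marks epithelium. The rule found 202 cells among 72701 kept cells of the series (0.278%, exact Clopper-Pearson 95% interval 0.241 to 0.319), and the values of these 4 genes are therefore a description and not a result.

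The series holds single cell RNA sequencing (10x Genomics) of cecum from male large white piglets at birth (d0) and at d1, d7, d14 and d21, with no treatment, and the methods state that piglets of all ages drank only maternal milk. Each age is 1 library in which cells of 5 piglets were mixed, so a library cannot be split by animal, and age and library cannot be told apart. The 5 libraries kept 15218 cells at d0, 14142 at d1, 10272 at d7, 16177 at d14 and 16892 at d21. Summed UMIs of the kept cells were 83394038, 80196009, 47921183, 91863866 and 69522315 in the same order.

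Mast cells are long-lived granulocytes that mature in tissues under the ligand of the KIT receptor and hold granules of histamine, proteases and proteoglycan. When antigen cross-links IgE on their high-affinity receptor (chains FCER1A, MS4A2 and FCER1G), the granules are released within minutes, and prostaglandin D2, leukotriene C4 and cytokines follow. In the gut they lie in the mucosa and submucosa and are known for their part in allergy, defence against worms and the control of permeability and motility.

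Markers of mast cells that the rule did not use were read in the same cells. Of FCER1A, KIT, the transcription factor GATA2, the prostaglandin D2 synthase HPGDS and the vesicular amine transporter SLC18A2, at least 2 had a UMI in 179 of the 202 cells (88.6%), 20 cells had 1 and 3 cells had none. Among 27075 other leukocytes (PTPRC of at least 1 UMI, no UMI of EPCAM, HDC or MS4A2) the same held in 102 cells (0.377%). CPA3, the carboxypeptidase of mast cell granules, had no UMI in any of the 202 cells, and MRGPRX2 and TPH1 had none either. CPA3 also had no UMI in the other leukocytes of all 5 libraries, MRGPRX2 had 1 and TPH1 had 27, so these zeros are not particular to mast cells. Of the basophil and eosinophil genes listed, EPX, the peroxidase of eosinophils, was seen in 1 mast cell, CCR3 in 2, GATA1 in 37 and PTGDR2, a prostaglandin D2 receptor, in 12. Levels over all 5 libraries, as UMIs per 10000 UMIs of the same cells, were 0.0144 for EPX and 0.0289 for CCR3 in mast cells, against 0.00138 and 0.0196 in other leukocytes. No barcode was shared between the mast cells of any 2 libraries, and 3 of the mast cells' barcodes were also kept in another library.

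The genes most like HDC in their pattern over cells, by the share of mast cells with a UMI among genes seen in under 5% of the other kept cells, were MCT7, GATA2, FCER1A, NOV and LTC4S. MCT7 (Sscrofa11.1, chr3:40616642-40619148 in RefSeq, where its synonyms include TPSB1) was detected in 181 mast cells (89.6%) and in 0.470% of the other kept cells. GATA2 (chr13:71981139-71997626) was detected in 180 (89.1%) against 0.768%. FCER1A (chr4:91118867-91125448) followed with 161 (79.7%) against 1.56%. NOV, a secreted matricellular protein, was detected in 157 mast cells (77.7%) against 0.812%, and LTC4S, leukotriene C4 synthase, in 151 (74.8%) against 3.96%. These shares describe 202 cells of which 116 came from the d14 library.

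The mast cells' share of kept cells was highest at d14. There were 11 mast cells at d0 (0.0723%, exact 95% interval 0.0361 to 0.129), 8 at d1 (0.0566%, 0.0244 to 0.111), 18 at d7 (0.175%, 0.104 to 0.277), 116 at d14 (0.717%, 0.593 to 0.859) and 49 at d21 (0.290%, 0.215 to 0.383). The intervals of d0, d1 and d7 overlapped each other, as did those of d7 and d21, and d14 lay apart from all the others. From d7 to d14 the share differed by 2.03 on the log2 scale (95% interval 1.32 to 2.75), and from d14 to d21 by -1.31 (-1.79 to -0.82). The share differed by -0.35 from d0 to d1 (-1.67 to 0.96) and by 2.00 from d0 to d21 (1.06 to 2.95). From d1 to d7 it differed by 1.63 (0.43 to 2.83), although the intervals of these 2 shares overlapped. This ratio was 0.53 (-0.35 to 1.41) with no condition on CD1.1 and EPCAM, where the cells numbered 17, 20, 21, 121 and 50. It was 0.72 (-0.99 to 2.44) with at least 2 UMIs of HDC and of MS4A2, and 0.84 (-0.73 to 2.41) with cells thinned to 1000 UMIs. With at least 2 of HDC, MS4A2 and FCER1A it was 2.02 (1.22 to 2.81), and with at least 500 genes 1.39 (0.13 to 2.64). All intervals here cover counting error only, and with 1 library per age no test between ages was possible.

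**Figure D1:**
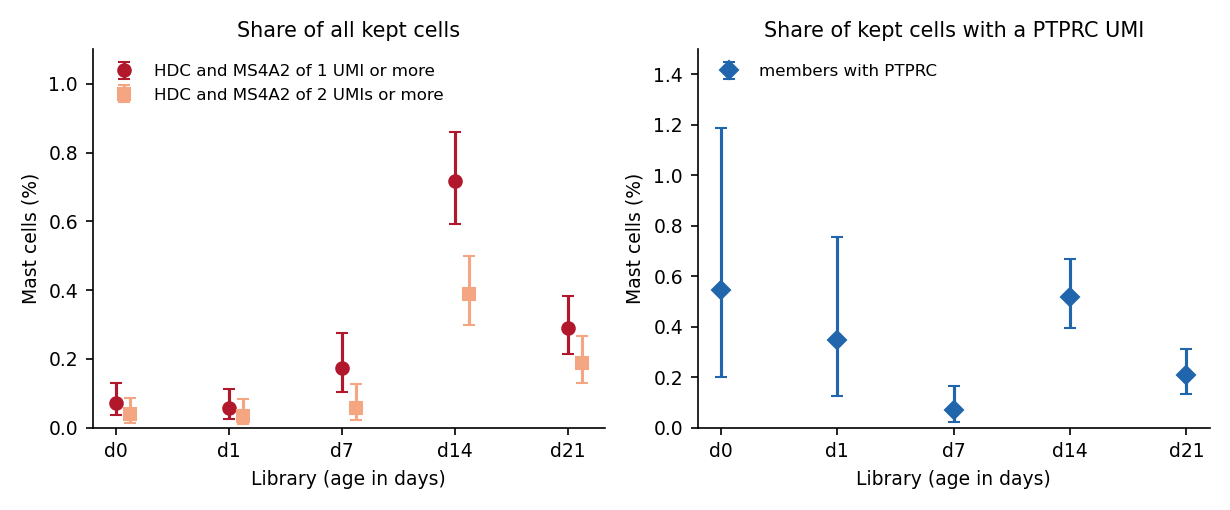
Mast cells as a percentage (y axis) by library age (x axis), over all kept cells (left, for the rule and for at least 2 UMIs of HDC and of MS4A2) and over kept cells with PTPRC (right), points with exact 95% intervals. On the left d14 is highest at 0.717%, and on the right d0 (0.547%) and d14 (0.517%) overlap.

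The order of the ages differed over leukocytes. All 202 mast cells, set over mast cells and kept cells with a UMI of PTPRC, made up 0.999% at d0, 0.463% at d1, 0.257% at d7, 1.01% at d14 and 0.443% at d21, a denominator added after the data were seen. With it the d7 over d1 and d21 over d0 ratios changed sign (log2 -0.85, interval -2.05 to 0.35, and -1.17, interval -2.11 to -0.23). Over cells without EPCAM these ratios kept their sign, with intervals that also held negative values (0.59, interval -0.61 to 1.79, and 0.63, interval -0.31 to 1.57). Among kept cells with a UMI of PTPRC, the pan-leukocyte gene CD45, the mast cells that held PTPRC made up 0.547% at d0 (6 cells, interval 0.201 to 1.19), 0.348% at d1 (6 cells), 0.0714% at d7 (5 cells), 0.517% at d14 (59 cells) and 0.208% at d21 (23 cells). This scale also drops the mast cells with no UMI of PTPRC, so detection of PTPRC and the denominator moved together. On it d0 and d14 overlapped and d7 was lowest (log2 -2.28 for d7 over d1 and -1.39 for d21 over d0, against 1.63 and 2.00 over all kept cells). The d14 library stood above d7 and d21 on each of these scales. Mast cells were also shallower than other leukocytes in 4 of 5 libraries: their median UMIs were 4120, 2824, 1409.5, 3116 and 1638 from d0 to d21, against 2203, 3143, 2805, 4029 and 3181. Their summed counts were 10.9, 9.01, 20.1, 12.6 and 12.4% mitochondrially encoded, against 13.3, 7.78, 6.83, 5.35 and 7.36% in other leukocytes, and the part of depth and of RNA quality in the shares was not tested beyond the alternatives given in the closing section.

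Levels below are summed UMIs of a gene per 10000 UMIs of the same cells, in the order d0, d1, d7, d14 and d21. They were compared between groups of cells for 1 gene at a time. Across genes they were only summed over a list, or used to name the most abundant gene of a marker list. For tests, raw counts were summed per library and cell group and fitted with edgeR's quasi-likelihood test with library as a block, over the 2 libraries with at least 20 mast cells (d14 and d21, 1 residual degree of freedom). With 1 residual degree of freedom, the test rests mostly on a spread shared over genes. The p-values and standard errors therefore say little of a gene's own spread between these pooled libraries, and nothing of that between piglets. A fit of all 5 libraries was added after the data were seen, and its values stand beside the first.

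Against other leukocytes, 560 of 13075 genes tested were higher in mast cells (4.28%) and 729 were lower (5.58%) at an adjusted p of 0.05 or less. With all 5 libraries 577 of 9663 genes were higher (5.97%) and 910 lower (9.42%), of which 470 and 637 were called in the same direction by both fits. The counts of called genes in the lists that follow stand beside these shares of all genes. DESeq2, run on the same 2 libraries, called 339 higher and 179 lower. The median log2 fold change over all genes tested was -0.16, and -0.11 with DESeq2's size factors in edgeR. By log2 fold change, the genes furthest above other leukocytes included, in order, MCT7, SLC18A2, NOV, NPY, GATA2, ENPP3, HPGDS, FCER1A, LOC102161330, LOC100621164, B3GALT1, MLPH, TAL1 and FAM160A1. The fold of SLC18A2 rests on 1 UMI in other leukocytes of these libraries.

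The tryptase gene MCT7 had levels of 21.7, 25.1, 41.8, 48.8 and 42.7 in mast cells. In other leukocytes the levels were 0.00631, 0, 0.00581, 0.0137 and 0.0104. In every library the mast cells lay far above other leukocytes, and the log2 fold change was 11.72 ± 0.28 (SE, 2 libraries) and 12.05 with 5 libraries. MCT7 is not in the lists of mast cell genes and was looked up after it led the ranking. Its neighbour on chromosome 3, LOC396700 (chr3:40596408-40598426), had levels of 1.76, 1.62, 12.7, 11.2 and 4.37 and was seen in 88 mast cells. A single mast cell held 40 of the 61 LOC396700 UMIs at d7 and 1 held 167 of 479 at d14. At d21, 5 cells held 86.9% of them. How reads were split between these neighbouring genes was not tested. SRGN, the serglycin core protein that binds proteases and histamine in granules, had levels of 121, 132, 50.8, 150 and 78.2 against 15.7, 16, 13.3, 16.4 and 9.99, above other leukocytes in each library (log2 fold change 2.91 ± 0.17).

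Of the 13 granule protease and proteoglycan genes listed, 8 were in the matrices and 7 were tested, of which 4 were higher (NDST2, SRGN, CTSD and CTSC), 1 was lower (GZMB) and 2 did not pass the test, with a median log2 fold change of 0.91 against -0.16 over all genes. NDST2, which sulfates the heparin chains of serglycin, had levels of 0.783, 1.21, 1.04, 1.03 and 1.36 against 0.0946, 0.0712, 0.0893, 0.0801 and 0.0681 (log2 fold change 3.79 ± 0.39). CTSC, the dipeptidase that activates granule proteases, was not called with 5 libraries. GZMB, a granzyme of cytotoxic lymphocytes, was seen in 18 mast cells and was lower than in other leukocytes by 2.03 ± 0.25 on the log2 scale. A single mast cell held 67 of the 78 GZMB UMIs at d14, and without it the d14 level was 0.259 and not 1.82, against 5.84 in other leukocytes.

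Histamine genes other than HDC were sparse. SLC18A2, which loads amines into granules, had levels of 0.196, 0.810, 0.209, 0.490 and 0.359 in mast cells (27 cells with a UMI) and was at 0 in other leukocytes except at d21 (0.000232). HNMT, which breaks histamine down by methylation, was seen in 2 mast cells, and its levels in other leukocytes were 0.120, 0.773, 0.292, 0.557 and 0.129. Of the 6 genes of this list tested, SLC18A2 was higher, HNMT was lower and 4 did not pass the test. Among the genes of granule docking and release, 4 of 15 tested were higher (RAB27B, STX3, UNC13D and RAB37) and none was lower, against 4.28% and 5.58% of all genes, with a median log2 fold change of 0.31. RAB27B, a small GTPase that docks granules at the membrane, had levels of 9.0, 5.26, 2.72, 2.77 and 2.65 against 0.0442, 0.0227, 0.0133, 0.0199 and 0.00811. UNC13D, which primes granules for fusion, had a log2 fold change of 2.44 ± 0.29 and was higher in 5 of 5 libraries.

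**Figure D2:**
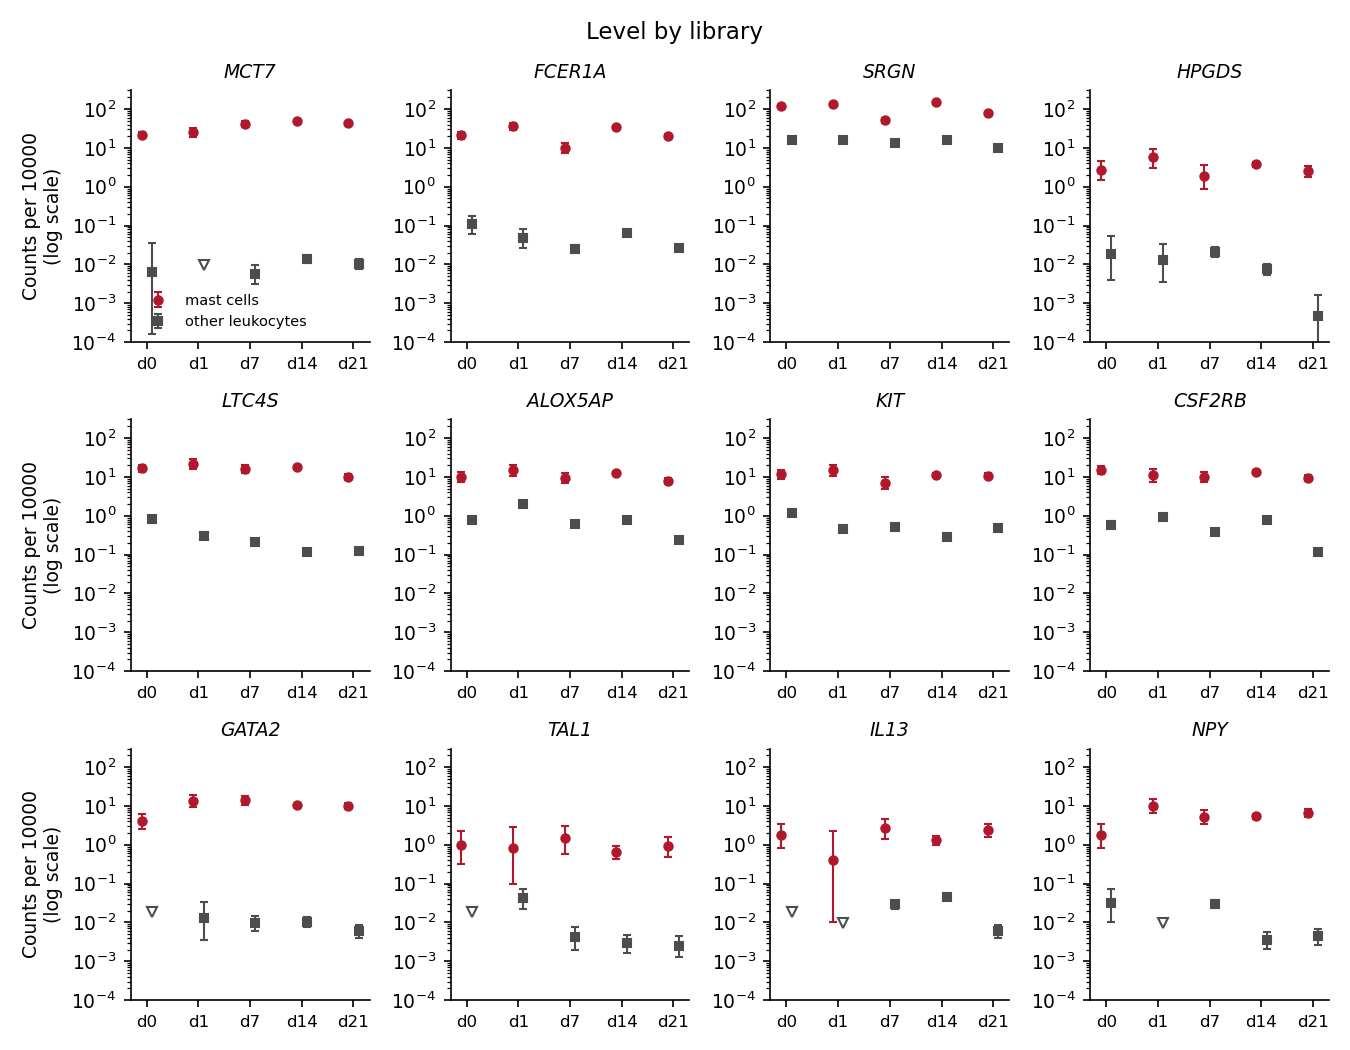
Levels of 12 genes (y axis, counts per 10000 counts of the same cells, log scale) by library (x axis) in mast cells (circles) and other leukocytes (squares), with exact Poisson 95% intervals and open triangles at the floor of 3 counts where no UMI was seen. Mast cells lie above other leukocytes in every library for each gene drawn. In the fit of d14 and d21, the log2 fold changes of MCT7, NPY and GATA2 were the largest of the genes drawn.

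The receptor for IgE was not uniform in its chains. FCER1A, the chain that binds IgE, had levels of 21.1, 36.4, 10.0, 34.0 and 20.4 in mast cells against 0.107, 0.0485, 0.0253, 0.0655 and 0.0262 in other leukocytes. All 5 libraries lay apart (log2 fold change 9.13 ± 0.27, 8.58 with 5 libraries), and FCER1A is a marker given for these cells though not part of the rule. FCER1G, the signalling gamma chain that other Fc receptors share, had levels of 7.43, 9.31, 10.2, 8.53 and 7.24 against 6.62, 8.78, 5.16, 6.53 and 5.00. It did not pass the test (log2 fold change 0.29 ± 0.21, adjusted p = 0.52) and was lower than in monocyte-like cells (-1.29 ± 0.20). Of the 17 genes of the receptor and its signalling tested, 6 were higher (FCER1A, BTK, GAB2, LAT, LAT2 and LYN), 2 were lower (FYN and LCP2) and 9 did not pass, with a median of 0.38. LAT and LAT2 are adaptors and BTK, LYN and FYN are kinases of the pathway. LYN was not called with 5 libraries, and SYK, the kinase that binds FCER1G, was seen in 11 mast cells and did not pass the test.

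Lipid mediator genes were led by the synthases of prostaglandin D2 and leukotriene C4. Of 13 genes of eicosanoid synthesis tested, 8 were higher (HPGDS, LTC4S, HPGD, PTGS1, ALOX5AP, ALOX5, PTGS2 and PLA2G4A), none was lower and 5 did not pass, with a median log2 fold change of 1.97. With 5 libraries the same 8 were higher and LTA4H, which makes leukotriene B4, was lower. LTC4S, which joins glutathione to leukotriene A4, had levels of 16.8, 21.5, 15.9, 18.1 and 10.1 against 0.826, 0.304, 0.212, 0.120 and 0.125 (log2 fold change 6.64 ± 0.27). ALOX5AP, which hands arachidonic acid to 5-lipoxygenase, had levels of 9.98, 15, 9.40, 12.4 and 7.89 against 0.795, 2.05, 0.601, 0.769 and 0.239. HPGDS had levels of 2.74, 5.67, 1.88, 3.75 and 2.51 against 0.0189, 0.0129, 0.0208, 0.00762 and 0.000463 (9.56 ± 0.39). None of the 5 libraries overlapped between mast cells and other leukocytes for these 3 genes. HPGD, which inactivates prostaglandins, was also higher, with levels of 3.72, 8.50, 5.43, 6.97 and 9.11 against 0.183, 0.660, 0.106, 0.283 and 0.0765.

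KIT and CSF2RB were among the growth factor receptors above other leukocytes. KIT, the receptor for stem cell factor, had levels of 11.5, 15, 7.10, 11.5 and 10.8 against 1.19, 0.466, 0.504, 0.287 and 0.472 (log2 fold change 4.77 ± 0.25). CSF2RB, the common beta chain for IL-3, IL-5 and GM-CSF, had levels of 15.3, 10.9, 9.82, 13.5 and 9.18 against 0.587, 0.951, 0.380, 0.766 and 0.114 (5.01 ± 0.26). Both genes were detected in most mast cells, KIT in 169 and CSF2RB in 164 of 202. IL1RL1, the receptor for the alarmin IL-33, was sparser (35 cells) with levels of 1.37, 1.21, 1.04, 0.373 and 0.717, and it was above other leukocytes in 5 of 5 libraries (3.03 ± 0.54). Of 12 genes of this list tested, 7 were higher (IL5RA, CSF2RB, KIT, IL9R, IL1RL1, IL2RA and TGFBR1), CSF2RA was lower and 4 did not pass, with a median of 1.12. IL5RA rested on 7 mast cells with a UMI, and IL2RA and TGFBR1 were not called with 5 libraries.

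Of 25 transcription factors of the lineage tested, 13 were higher (GATA2, TAL1, GATA1, ERG, MEIS2, MITF, MYB, LYL1, LMO4, ZEB2, STAT5A, GFI1 and STAT5B), 2 were lower (RUNX3 and IKZF2) and 10 did not pass, with a median of 1.19. The 5-library fit called these 13 and these 2 in the same directions. GATA2, a regulator of mast cell identity, had levels of 4.11, 13.4, 13.8, 10.5 and 10.0 against 0, 0.0129, 0.00955, 0.0104 and 0.00603 (10.13 ± 0.33). TAL1, a partner of GATA factors, had levels of 0.978, 0.810, 1.46, 0.653 and 0.932 against 0, 0.0421, 0.00415, 0.00293 and 0.00255. MITF, a regulator of KIT and granule genes, was seen in 75 mast cells and had a log2 fold change of 3.80 ± 0.35. RUNX3, a factor of cytotoxic T cells, had levels of 0.978, 0.810, 0.418, 0.769 and 1.86 against 2.42, 1.42, 2.57, 2.18 and 4.16.

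Cytokine genes went in both directions. Of 29 tested, 5 were higher (IL13, LIF, IL4, VEGFA and CCL2), 8 were lower (CSF2, IL10, CCL1, TNFSF14, IL1B, TNF, CCL5 and TNFSF10) and 16 did not pass, with a median log2 fold change of -0.97. IL13, a type 2 cytokine that acts on mucus and smooth muscle, had levels of 1.76, 0.405, 2.72, 1.33 and 2.37 against 0, 0, 0.0291, 0.0442 and 0.00603 (6.2 ± 0.39) and was seen in 45 mast cells. A single mast cell held 10 of the 13 IL13 UMIs at d7 and 1 held 19 of 33 at d21, where 5 cells held 84.8%. IL4 was seen in 11 mast cells. CCL2, a chemokine for monocytes, had 43 of its 98 UMIs of d14 and d21 in 1 cell, and its level over both libraries was 1.72, or 0.986 without that cell, against 0.672. LIF, a cytokine of the IL-6 family, was seen in 40 and had levels of 0.196, 2.02, 0.836, 0.746 and 1.15 against 0.0505, 0.0615, 0.0486, 0.0231 and 0.0292. TNF was at 0 from d0 to d7 and had levels of 0.256 at d14 and 0.215 at d21, against 1.23 and 0.648 in other leukocytes. IL5, IL6, IL9 and CSF2 had no UMI in any mast cell. In other leukocytes of d14 and d21, IL9 had none either and IL5 (0.0221) and IL6 (0.00933) lay under the mast cell floor of 0.0528, so a difference was not detectable at this depth, while CSF2 was at least 3.61-fold lower in mast cells.

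CCL5, a chemokine of T cells, differed between the libraries. Its levels in mast cells were 0, 0, 1.67, 16.5 and 74.9, with a UMI in 0 of 11, 0 of 8, 7 of 18, 62 of 116 and 49 of 49 cells. Other leukocytes had 75.2, 21.9, 62.3, 73.8 and 156, T cells 140, 60.1, 76.0, 109 and 180, and monocyte-like cells 0, 5.62, 12.6, 16.6 and 27.2. CCL5 was thus lower in mast cells than in other leukocytes in each library (-1.78 ± 0.16 in 2 libraries, -4.0 in 5). Cells with EPCAM, which should lack CCL5, held a UMI in 66.7% at d7, 71.0% at d14 and 98.4% at d21 (median 5395, 6292 and 4153 UMIs per cell, against 1409.5, 3116 and 1638 in mast cells), so a UMI of CCL5 in a mast cell of these ages is not read as expression. Levels in the cells with EPCAM were 8.37 at d7, above that of mast cells, and 8.47 at d14 and 35.2 at d21, below those of mast cells, and 5 mast cells held 76.6% of the CCL5 UMIs at d14 and 70.8% at d21, with 220 and 244 in a single cell. Cytotoxic marker genes summed to 11.3, 6.88, 8.36, 27 and 84.8 in mast cells, of which CCL5 was the most abundant at d14 and d21 and NKG7 at d0, d1 and d7, and NCR1 was at 0. T cell markers summed to 0.391, 0, 0.836, 3.24 and 6.74, with 8 of 9 detected, CD3E the most abundant (1.31) and CD3D at 0. CD3E was seen in 21 of 116 mast cells at d14 and 9 of 49 at d21, and the part of free RNA and of barcodes that hold more than 1 cell in these values was not tested.

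Among surface receptors outside the IgE pathway 7 of 25 tested were higher (ENPP3, HRH4, P2RX1, P2RY14, PTGDR2, PTGER2 and CD63) and 4 lower (SLAMF1, C5AR1, CD48 and PTGER4), with a median of 0.27. ENPP3, the ectoenzyme CD203c of basophils and mast cells, was seen in 47 mast cells with levels of 0.391, 2.43, 0.627, 0.862 and 1.58 against 0.00631, 0, 0.00208, 0.00117 and 0.000695. HRH4, a histamine receptor, was seen in 24. CD63, a granule membrane protein shown on the surface after release, had levels of 16.6, 19.0, 15.9, 23.2 and 13.1 against 8.52, 16.4, 4.77, 9.25 and 3.79 (1.38 ± 0.20). PTGDR2 was not called with 5 libraries. In the adhesion and homing list 2 of 23 tested were higher (ITGA2 and ITGB7) and 6 lower (CX3CR1 and ITGAE among them), against 4.28% and 5.58% of all genes, with a median of -1.12. ITGB7, the beta chain of the integrin that homes to gut, had levels of 1.17, 0.405, 2.09, 2.61 and 2.15 against 0.360, 0.443, 1.03, 1.23 and 1.26, and it was not called with 5 libraries.

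NPY and NOV were among the genes furthest above other leukocytes without being in any list. NPY, best known as a neuropeptide, was seen in 87 mast cells with levels of 1.76, 10.1, 5.22, 5.38 and 6.60 against 0.0315, 0, 0.0307, 0.00352 and 0.00440 (10.38 ± 0.36). NOV had levels of 13.3, 8.10, 5.43, 11.8 and 10.2 against 0.00631, 0.00647, 0.00291, 0.00860 and 0.00324 (10.73 ± 0.34). Neither gene overlapped between the groups in any library. MLPH, which links RAB27 proteins to myosin on melanosomes, was seen in 86 mast cells (8.07 ± 0.40) and B3GALT1, a galactosyltransferase, in 35 (8.36 ± 0.94). LOC102161330 was seen in 150 (8.98 ± 0.34), FAM160A1 in 22 and LOC100621164 in 9.

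**Figure D3:**
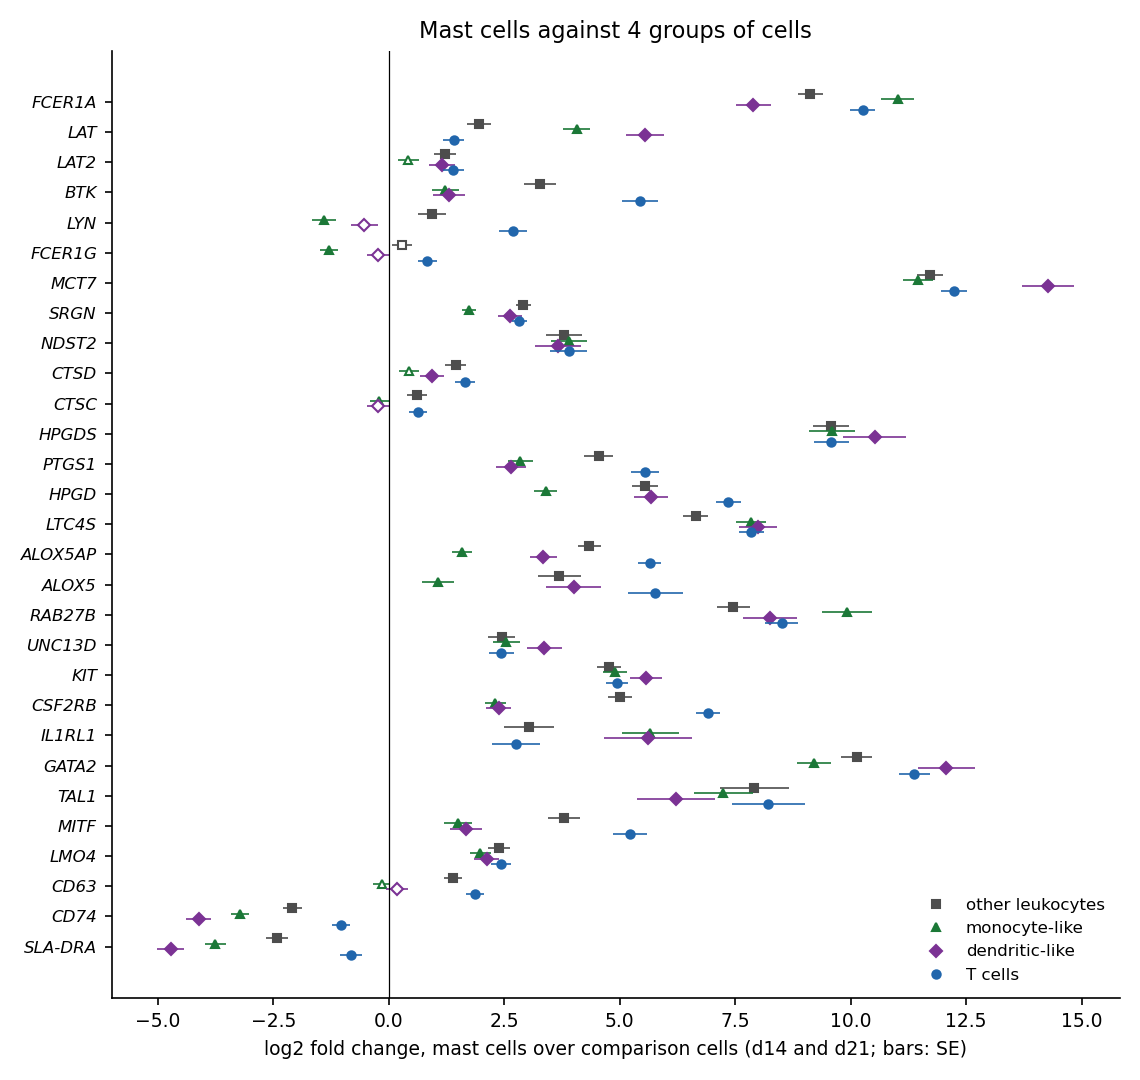
Log2 fold changes (x axis, bars SE) of mast cells over other leukocytes, monocyte-like, dendritic-like and T cells for 29 named genes (y axis), edgeR on the d14 and d21 libraries, with open symbols where the adjusted p was above 0.05. FCER1A lies far to the right in all 4 comparisons, FCER1G between -1.29 against monocyte-like cells and 0.83, and CD74 and SLA-DRA to the left. MCT7, HPGDS and GATA2 had no UMI in dendritic-like cells, so their points there depend on the fit and are not bounds.

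Genes of antigen presentation by MHC class II were mostly lower. The rule left cells with CD1.1 out of the mast cells, while other leukocytes kept them. Of 8 MHC class II genes tested 7 were lower and none higher against other leukocytes, 8 of 8 were lower against monocyte-like and dendritic-like cells, and 5 of 8 against T cells, where 5.58, 17.4, 11.5 and 10.2% of all genes were lower in the same order. CD74, the invariant chain, had levels of 0.196, 1.21, 3.34, 8.48 and 4.52 against 26.5, 45.6, 19.3, 42.6 and 12.2 (-2.09 ± 0.20). SLA-DRA had levels of 0, 0.405, 0.627, 3.52 and 1.29 against 20.2, 34.8, 6.53, 21.9 and 3.99. At d14 a single mast cell held 185 of 364 CD74 UMIs and 90 of 151 SLA-DRA UMIs, and without it the d14 levels were 4.31 and 1.47. Also lower were 11 of 11 heat shock genes, 8 of 20 immediate early genes and 7 of 18 cell cycle genes, none of these lists having a gene that was higher, with medians of -0.94, -0.75 and -0.88, against 5.58% of all genes lower and a median of -0.16. With 5 libraries 9, 5 and 6 genes of these lists were lower, against 9.42% of all genes.

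The 10 genes with the most negative fitted fold changes against other leukocytes had no UMI in the 165 mast cells of d14 and d21, so their order depends on the fit, and their folds are given as bounds from a floor of 3 counts over both libraries. They are not shown to lie furthest below, since genes with few UMIs were also far lower, such as HNMT (0.0176 against 0.361, 1 UMI in mast cells) and GZMA, a granzyme (0.0352 against 0.632, 2 UMIs). The cytokine IL17A of type 3 lymphocytes was at least 5.76-fold lower, IL17F at least 4.97-fold and LTA, a cytokine of the TNF family, at least 3.84-fold. CXCL13, which attracts B cells, was at least 4.72-fold lower, the inflammatory protease CASP1 at least 4.59-fold, the fractalkine receptor CX3CR1 at least 4.11-fold, TNIP3 at least 3.84-fold and CADM1 at least 3.76-fold. LOC100624077 and LOC110259478 were at least 7.30-fold and 3.67-fold lower.

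Markers of other cell types were read in the same cells. Of these lists, 8 of 9 T cell genes tested, 9 of 10 cytotoxic genes, 7 of 8 monocyte genes, 5 of 7 macrophage genes, 4 of 4 dendritic genes and 3 of 5 plasma cell genes were lower in mast cells than in other leukocytes. B cell genes were lower in 2 of 6. Fibroblast genes were not lower: 1 of 7 was higher (FBLN1), and their sum in mast cells was 2.35, 2.43, 2.09, 20.7 and 5.31 against 0.0757, 6.89, 1.00, 12.3 and 3.54, with COL3A1 the most abundant (6.2 over all mast cells) and all 7 detected. Monocyte genes summed to 0, 0, 14.8, 1.21 and 0.932, and 1 mast cell held all FCN1 UMIs of the d7 library. Macrophage genes summed to 0.391, 1.62, 0.418, 1.68 and 0.789, with CD68 the most abundant (0.390). At least 2 fibroblast genes were seen in 1, 1, 0, 13 and 8 mast cells, at least 2 T cell genes in 0, 0, 0, 7 and 3, at least 2 epithelial genes in 1, 2, 1, 0 and 2 and at least 2 macrophage or monocyte genes in 0, 0, 1, 8 and 0. For fibroblast genes this was 11.2% at d14 (exact interval 6.10 to 18.4) and 16.3% at d21 (7.32 to 29.7). In other leukocytes it was 12.4% and 6.37%. For T cell genes it was 6.03% and 6.12%, against 43.7% and 50.9%. The part of mast cells with such genes in the results was not tested.

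Mast cells were also set against 3 named groups of leukocytes, which were monocyte-like cells (FCN1 and CD14), dendritic-like cells (CD1.1, no CD3E) and T cells (CD3E and CD3G), each without EPCAM, HDC or MS4A2. Against monocyte-like cells 957 of 6939 genes were higher (13.8%) and 1206 lower (17.4%), against dendritic-like cells 459 of 4919 were higher (9.33%) and 568 lower (11.5%), and against T cells 801 of 12238 were higher (6.55%) and 1243 lower (10.2%). With all 5 libraries 490 (15.6%) and 698 genes (22.3%), 336 (9.68%) and 437 genes (12.6%), and 721 (10.9%) and 810 genes (12.3%) were called. DESeq2 called 296 and 450, 134 and 168, and 490 and 272. Eicosanoid genes were higher in 7 of 11 tested against monocyte-like cells, in 6 of 11 against dendritic-like cells and in 9 of 13 against T cells. TBXAS1, thromboxane synthase, and LTA4H were lower than in monocyte-like and dendritic-like cells, and LTA4H was lower than in T cells. Transcription factors were higher in 13 of 23, 11 of 19 and 14 of 24. CEBPA, LMO2 and SPI1, factors of the myeloid lineage, were lower than in monocyte-like and dendritic-like cells, and CEBPB was lower than in monocyte-like cells.

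The size of the difference varied with the group. FCER1A was higher by 11.01 ± 0.35 on the log2 scale than in monocyte-like cells, by 7.89 ± 0.37 than in dendritic-like cells and by 10.26 ± 0.27 than in T cells. The dendritic-like group leaves out cells with MS4A2, which 56.2% of the cells with CD1.1 and no HDC held, and over all of those cells FCER1A was at 0.765 at d14 and 1.73 at d21, against 34.0 and 20.4 in mast cells. ALOX5AP differed less from monocyte-like cells (1.59 ± 0.22) and dendritic-like cells (3.34 ± 0.29) than from T cells (5.65 ± 0.25), a description of 3 fits that share the mast cells, with no test of the difference. CSF2RB was higher by 2.30 ± 0.23, 2.38 ± 0.27 and 6.90 ± 0.26 in the same order. CD63 did not pass against monocyte-like cells (-0.16 ± 0.19, adjusted p = 0.57) or dendritic-like cells (0.18 ± 0.24, adjusted p = 0.69) and was higher than in T cells (1.86 ± 0.19). CCL5 was higher than in monocyte-like and dendritic-like cells with 2 libraries (0.52 and 1.56), and with 5 libraries the sign turned and neither passed (-0.75 and -0.06). At d14 the CCL5 levels of mast cells and monocyte-like cells, given above, were about the same. In mast cells 5 cells held 76.6% of the CCL5 UMIs at d14 and 70.8% at d21. As stated above, a UMI of CCL5 in a mast cell of these ages is not read as expression.

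Mast cells of d14 and d21 were numerous enough (116 and 49) to set their levels side by side, with no test since each age is 1 library. With 0.1 added to each level, 190 of 2912 genes of mean level 0.5 or more were at least 2-fold higher at d21 (6.52%) and 150 at least 2-fold lower (5.15%). For 191 of the genes past 2-fold the exact Poisson intervals of the levels lay apart. The counts behind these levels were 428996 UMIs at d14 and 139451 at d21. In simulated Poisson counts at these depths, 137 of 2594 genes left unchanged were also past 2-fold. Of the 153 unchanged genes with a mean level of 5 or more, 0 were. Counts past 2-fold thus include genes of low level that pass by counting error.

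**Figure D4:**
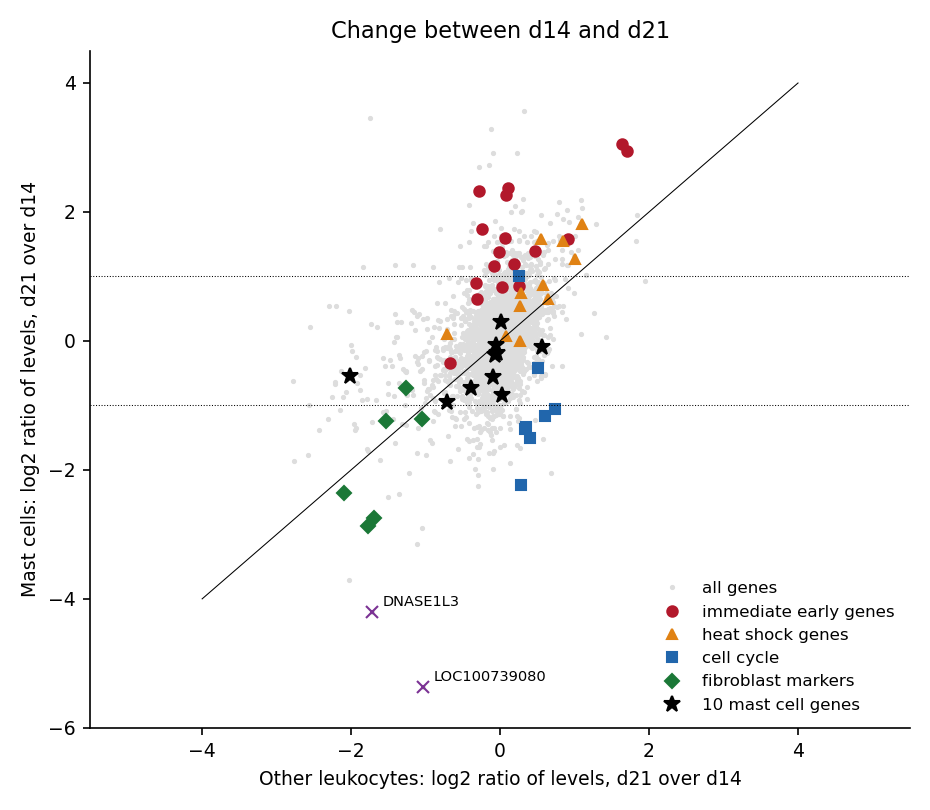
Log2 ratio of d21 over d14 levels in mast cells (y axis) against the same ratio in other leukocytes (x axis), 1 point per gene of mean level 0.5 or more, with dotted lines at 2-fold and a solid line of equal ratios. Immediate early genes lie high (median 1.40 against 0.06), cell cycle genes low (-1.25 against 0.38), and fibroblast genes low on both axes (-1.80 and -1.61).

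Of the lists of mast cell function few genes were measured at this level, so their counts past 2-fold are a description beside the 6.52% upward and 5.15% downward of all genes. None of 6 granule protease genes, 8 eicosanoid genes or 6 receptor genes of this level was past 2-fold, with median log2 ratios of -0.35, -0.48 and -0.29 in mast cells and -0.65, -0.61 and -0.34 in other leukocytes. In IgE signalling 2 of 10 were past 2-fold upward (VAV1 and LCP2), in granule release 2 of 9 downward (SNAP23 and STXBP2), among other surface receptors 1 of 7 upward (PTGER4) and 1 downward (FCGR2B), and among cytokines 3 of 9 upward (HBEGF, AREG and CCL5). The intervals of VAV1, SNAP23, STXBP2, PTGER4 and FCGR2B overlapped between the ages. Of the 3 cytokine genes, AREG had 15 of its 16 d21 UMIs in 1 cell, and CCL5 was also held by most cells with EPCAM, as given above. Of 16 transcription factors 1 was past 2-fold upward (RUNX3, 0.769 to 1.86) and 1 downward (LYL1, 2.00 to 0.789). For RUNX3, 5 cells held 69.2% of the d21 UMIs. Of 4 T cell markers of this level 2 were past 2-fold upward (CD247 and LCK), and of 4 cytotoxic markers 2 (KLRK1 and CCL5). Their medians were 0.92 and 0.92 in mast cells and 0.45 and 0.82 in other leukocytes. The part of other cell types in these values was not tested. MCT7 stood at 48.8 (46.7 to 50.9) and 42.7 (39.3 to 46.2), and GATA2 at 10.5 (9.54 to 11.5) and 10.0 (8.45 to 11.8). SRGN was lower at d21 by 0.94 on the log2 scale and LTC4S by 0.83, in each case with intervals that lay apart. In other leukocytes, by the levels given above, SRGN was also lower at d21 and LTC4S was not.

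Immediate early genes, which answer stimuli and handling within minutes, were higher at d21. Of 17 of this level, 12 were past 2-fold upward and none downward (KLF4, JUNB, EGR1, DUSP2, ZFP36, FOSB, JUN, FOS, BTG2, ATF3, KLF6 and NR4A2), with a median of 1.40 in mast cells and 0.06 for the same genes in other leukocytes. JUN, a subunit of AP-1, had levels of 21.9, 49.4, 19.4, 10.3 and 27 in mast cells and of 25, 18.9, 21.1, 20.6 and 20.4 in other leukocytes. FOSB, another subunit, had levels of 9.39, 16.2, 2.92, 0.723 and 6.74 against 7.48, 6.53, 3.13, 1.21 and 3.98, with a UMI in 14 of 116 cells at d14 and 21 of 49 at d21. The d14 mast cells were thus the lowest of the 5 libraries for both genes, and the summed level of the list was 101, 214, 77.3, 32.1 and 88.3. Heat shock genes were past 2-fold upward in 4 of 11 (HSPH1, DNAJB1, DNAJA1 and HSPD1), with a median of 0.75 against 0.55 in other leukocytes. Few cells held most of these counts. Of the d21 UMIs, 5 of the 49 mast cells held 92.6% for ZFP36, 69.2% for JUNB, 66.1% for FOS and 58.5% for JUN, and ZFP36 was seen in 15.5% of cells at d14 and 14.3% at d21. The part of tissue handling in these values was not tested.

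Cell cycle genes went the other way. Of 8 of this level, 6 were past 2-fold downward at d21 (STMN1, CENPF, TOP2A, HMGB2, MKI67 and UBE2C) and PCNA was past 2-fold upward, with a median of -1.25 in mast cells and 0.38 in other leukocytes. TOP2A, which untangles DNA in mitosis, stood at 1.96 (1.56 to 2.42) at d14 and 0.717 (0.344 to 1.32) at d21. Of the d14 UMIs, 5 of the 116 mast cells held 71.4% for TOP2A, with 26 of 84 in 1 cell. The top 5 cells of each gene held 75.6% for UBE2C, 58.5% for CENPF, 56.3% for STMN1, 55.8% for MKI67 and 49.1% for HMGB2. All 10 TOP2A UMIs of d21 were in 3 cells. The Poisson intervals treat UMIs as independent and do not cover this spread between cells. The intervals of MKI67 overlapped (1.00, 0.725 to 1.35, and 0.430, 0.158 to 0.936), as did those of PCNA. At least 2 of MKI67, TOP2A, CENPF, CDK1 and UBE2C were seen in 1 of 11, 0 of 8, 2 of 18, 15 of 116 (12.9%, exact interval 7.42 to 20.4) and 2 of 49 mast cells (4.08%, 0.498 to 14.0). The last 2 intervals overlapped, and mast cells of d21 had fewer UMIs per cell.

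Among the 10 largest rises, FOSB, NR4A2, an orphan nuclear receptor (0.303 to 3.01), and KLF4 were seen in 21, 10 and 7 of the 49 mast cells of d21, where 5 cells held 72.3%, 83.3% and 87.5% of their UMIs. NR4A2 was also higher at d21 in other leukocytes (1.06 to 3.68), and others rested on single cells. Of the d21 UMIs, 1 mast cell held 18 of 19 of ABHD15, 34 of 39 of LOC100524999, 19 of 25 of CXCL2, 58 of 70 of CASP10, 15 of 16 of AREG and 13 of 14 of KCNJ13. NR2F2 was seen in 2 cells of d21. The largest fall was LOC100739080 (chr7:74775212-74778404), with levels of 1.76, 0, 12.3, 9.95 and 0.143 and a UMI in 37 of 116 cells at d14 and 1 of 49 at d21. Its UMIs were concentrated, with 74.5% of those at d14 in 5 cells and 58 of 59 at d7 in 1 cell. DNASE1L3, a secreted DNase of myeloid cells, had levels of 6.06, 6.07, 1.04, 3.08 and 0.0717 and was seen in 42 of 116 cells at d14 and 1 of 49 at d21, with 0.525 and 0.0899 in other leukocytes. COL3A1, LUM, DCN, EMILIN1, PTN, TAGLN and ACTA2, genes of fibroblasts, matrix and smooth muscle, made up most of the other falls. Their d14 UMIs were also concentrated, with 50 of 61 of PTN and 56 of 101 of TAGLN in 1 cell and, in 5 cells, 97.8% of LUM, 92.3% of DCN, 87.7% of ACTA2 and 66.7% of EMILIN1. COL3A1 stood at 9.51 and 1.22 in mast cells, where 5 cells held 83.8% of the d14 UMIs, and at 5.47 and 1.53 in other leukocytes. LOC100516039 was at 1.21 at d14, where 5 cells held 98.1% of its UMIs, and had no UMI at d21.

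The cells next to the rule were read with no test. The 76 mast cells with 1 HDC UMI had levels of 35.5 for MCT7, 21.0 for FCER1A and 9.81 for GATA2, and the 38 with 1 MS4A2 UMI had 23.9, 6.64 and 12. Just outside, 84 cells with HDC and no MS4A2 had 3.65 for MCT7 and 1.16 for FCER1A, and 1708 cells with MS4A2 and no HDC had 0.625 for MCT7 and 59.2 for the MHC class II gene SLA-DRA, against 44.2 and 2.50 in all mast cells (1.22 for SLA-DRA without the cell that held the most). A further 139 cells with at least 3 MCT7 UMIs did not meet the rule, 22, 18, 16, 62 and 21 from d0 to d21, and they had levels of 23.1 for MCT7, 12 for FCER1A and 6.47 for KIT. Of these, 28 held EPCAM, with a level of 19.5 for KRT19, a keratin of epithelium, and 111 did not, with 0.457 for KRT19, 29.5 for MCT7 and 14.3 for FCER1A, against 0.405, 44.2 and 28.7 in mast cells. With at least 2 of HDC, MS4A2 and FCER1A required in its place the counts were 36, 17, 50, 257 and 103.

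**Figure D5:**
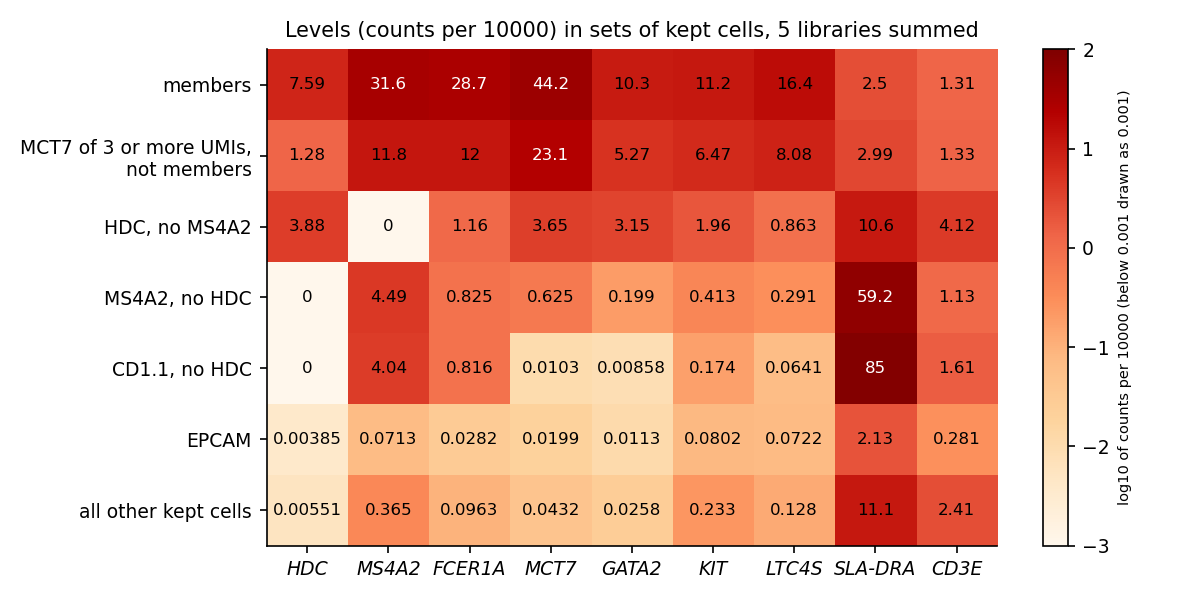
Levels of 9 genes (columns, counts per 10000 printed in each cell, colour on a log10 scale) in the mast cells (members) and in sets of cells outside the rule (lines), 5 libraries summed. Cells with MS4A2 and no HDC have 0.625 for MCT7 and 59.2 for SLA-DRA, against 44.2 and 2.50 in mast cells.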

How the data were processed

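The members, the rule and the gene lists were chosen with earlier results of these data known. The authors made the deposited UMI counts with Cell Ranger 3.1.0, which aligns with STAR (susScr11), as named in the submitters' processing notes; the files hold raw counts of 20648 genes and more barcodes per library (10824 to 16975) than the cells that the study kept. Here barcodes with at least 200 genes were kept, no limit was set on mitochondrial counts and no doublet caller was run. Levels are summed counts per 10000, with exact Poisson intervals, and shares have exact Clopper-Pearson intervals. The median mast cell held 1409.5 to 4120 UMIs by library, so low genes are uncertain in single cells.

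Counts summed per library and group were tested in edgeR 4.0.16 (R 4.3.3) with TMM, filterByExpr, the quasi-likelihood test and Benjamini-Hochberg adjustment over all genes, and the scripts were tested on simulated data. Genes of the gates stayed in the fit and are not results. Genes named are those of the lists, the 15 most positive and 10 most negative log2 fold changes called in the same direction in every library of the fit, the 10 largest rises and falls from d14 to d21, and the 5 most like HDC, except for items that are not reported here. Others (LOC396700 and single marker genes) were chosen after their values were seen. Alternatives were DESeq2 1.42.0, its size factors, other filters, gates, denominators and pseudocounts. Levels without the mast cell that held most UMIs of a gene were added after the data were seen. Gene positions come from RefSeq for Sscrofa11.1. Of 352 listed symbols 336 were in the matrices, and the rest are not used here.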

Additional observations from a re-analysis of the deposited data

How the results depend on the processing

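The d21 over d14 and d1 over d0 share ratios stayed within the interval of the value reported, or kept their sign, under each alternative, and d1 over d0 turned its sign to 0.34 with no condition on CD1.1 and EPCAM (20 cells at d1, 0.141%). The others moved: with cells under 20% mitochondrial counts d7 over d1 was 0.27 and d21 over d0 was 0.28, and over PTPRC cells d7 over d1 was -2.28, d14 over d7 2.86 and d21 over d0 -1.39 (-0.85 for d7 over d1 and -1.17 for d21 over d0 with all mast cells over mast and PTPRC cells). Over cells without EPCAM, d21 over d0 was 0.63 (all log2). DESeq2 called 518 genes against other leukocytes, 746 against monocyte-like cells, 302 against dendritic-like cells and 762 against T cells, where edgeR called 1289, 2163, 1027 and 2044. Of 183 called list genes against other leukocytes, DESeq2 kept 107, DESeq2's size factors 180 and the 5-library fit 163 of 181, and none turned its sign. The 5-library fit called 1188 genes against monocyte-like cells, where fewer genes were tested, and turned CCL5 against monocyte-like (-0.75) and dendritic-like cells (-0.0635). Leaving out each library of the 2-library fit was not possible, since 1 library leaves no residual degrees of freedom. In the 5-library fit, leaving out 1 library gave 755 to 1386 genes against other leukocytes, 566 to 1773 against monocyte-like cells (699 without d21), 333 to 776 against dendritic-like cells and 768 to 1631 against T cells. The lowest of each was without d14, the library with the most mast cells. The 340 genes past 2-fold between d14 and d21 were 49 with 1 per 10000 added, 44 at a mean level of at least 2, 1841 with no limit and 1118 with cells thinned to 500 UMIs, and ACTA2 turned its sign when thinned (0.0193). The cause was not tested beyond the fewer or more genes, cells and counts that each setting leaves. Low member counts at d0, d1 and d7 (8 to 18 cells) limit what those libraries can show.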

Other observations

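MS4A2 was not particular to the mast cell gate in its level over cells. Among 2102 cells with CD1.1 and no HDC, 56.2% held a UMI of MS4A2 and 0.476% a UMI of MCT7. Their level of MS4A2 was 4.04 per 10000, of FCER1A 0.816, of MCT7 0.0103, of GATA2 0.00858 and of SLA-DRA 85.0. In the mast cells, whose MS4A2 the rule fixed, the levels were 31.6 for MS4A2, 28.7 for FCER1A, 44.2 for MCT7, 10.3 for GATA2 and 2.50 for SLA-DRA. In the 70387 kept cells that were neither mast cells nor held CD1.1, MS4A2 was at 0.182 and MCT7 at 0.0434.

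Within the d14 mast cells, LOC100739080 was seen in 37 and LOC396700 in 60, and 24 held both. LOC396700 was seen in 64.9% of cells with LOC100739080 and in 45.6% of the 79 without it, with median UMIs of 3152 and 2985. NPY was seen in 40.5% and 43.0% of these cells, and MCT7 in 78.4% and 93.7%. These are counts of cells of 1 library and no test was made.

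TFPI2, an inhibitor of serine proteases, was chosen after its values were seen. Its levels in mast cells were 14.1, 34.0, 10.2, 19.5 and 5.67 from d0 to d21, against 0.0315, 0.256, 0.00997, 0.195 and 0.0487 in other leukocytes. It was detected in 147 mast cells.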
